A study of Mus musculus with 31 samples.

Results

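The Hedgehog pathway was followed through 9 genes, chosen by name from the 38283 genes of each expression table: the ligands Shh, Ihh and Dhh, the receptor Ptch1, the signal transducer Smo, the transcription factors Gli1, Gli2 and Gli3, and the ligand-binding inhibitor Hhip. Hedgehog ligands are secreted proteins. In their absence Ptch1 keeps Smo inactive, and Gli2 and Gli3 are held back or cut to repressors. When a ligand binds Ptch1, Smo becomes active at the primary cilium and Gli proteins switch on target genes, among them Gli1, Ptch1 and Hhip, the last of which binds ligand and dampens the signal. In the embryonic gut, epithelial Shh and Ihh signal to the surrounding mesenchyme, while the early pancreatic bud is known for excluding Shh.

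RNA was sequenced from pancreas of C57BL/6 mice at postnatal day 2, after sorting into YFP-positive mesenchymal and YFP-negative non-mesenchymal cells. All groups, controls included, carry Nkx3.2-Cre, a Cre recombinase driven by a gene of gut and pancreatic mesenchyme, on 1 allele. In the H19DMD model, mutants (H19DMDfl/+; Nkx3.2+/Cre) carry on 1 allele a floxed copy of the imprinting control region upstream of H19, and controls are H19DMD+/+; Nkx3.2+/Cre. This model gave 3 control and 4 mutant libraries of each fraction. In the Igf2 model, mutants (Igf2+/fl; Nkx3.2Cre/+) carry a floxed allele of the growth factor Igf2 and controls are Igf2+/+; Nkx3.2Cre/+. From this model 4 controls and 3 mutants of the non-mesenchymal fraction were used. Cre acts in the mesenchyme, so the non-mesenchymal cells of mutants are neighbours of the cells in which the floxed allele is deleted. Not analysed here were 8 mesenchymal samples of the Igf2 model and 2 H19DMD-model controls.

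Values are FPKM, which are corrected for transcript length and for library size, so levels of different genes can be compared. The labels do not say whether replicates are separate animals or pools, so p-values measure the spread between these libraries. The labels were checked first. In mesenchymal cells, Igf2 was 3648 to 4024 FPKM in the controls and 6162 to 7923 in the H19DMD mutants, and H19 was 2437 to 2454 against 565 to 835, with no overlap. Igf2 in the non-mesenchymal cells of the Igf2 model was 71.5 to 144 FPKM in controls and 25.0 to 147 in mutants. The summed FPKM of 10 mesenchymal markers was 5764 to 7438 over the 7 mesenchymal libraries and 164 to 296 over the 7 non-mesenchymal libraries of the H19DMD model, and 226 to 460 in the Igf2 model. Between 17476 and 20918 genes were above 0 in a library, and the number of reads behind a value is unknown.

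The sequences upstream of Hhip and Ptch1 are shown because both are known targets that gave different patterns: Hhip was the member whose H19DMD mutant and control mesenchymal libraries did not overlap, while Ptch1 was the 1 tested member not called between the fractions of control pancreas. RefSeq (GRCm38.p6) gave promoter windows, 250 bases before to 50 after the start, for 7 of the 9 members, and not for Shh and Gli1. Both sequences are the 250 bases before the start, read 5′ to 3′ on the gene's minus strand, with CpG dinucleotides in capitals. That of Hhip is chr8:80058009-80058258 and that of Ptch1 is chr13:63565736-63565985. The Ptch1 stretch precedes the RefSeq start of this window and lies inside the annotated gene, which begins farther upstream.
Hhip: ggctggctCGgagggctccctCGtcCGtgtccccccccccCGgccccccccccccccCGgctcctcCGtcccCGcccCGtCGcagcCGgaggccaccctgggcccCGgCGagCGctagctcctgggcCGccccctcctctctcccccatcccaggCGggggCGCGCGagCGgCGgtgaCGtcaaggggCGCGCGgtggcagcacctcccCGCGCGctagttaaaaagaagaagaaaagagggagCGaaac
Ptch1: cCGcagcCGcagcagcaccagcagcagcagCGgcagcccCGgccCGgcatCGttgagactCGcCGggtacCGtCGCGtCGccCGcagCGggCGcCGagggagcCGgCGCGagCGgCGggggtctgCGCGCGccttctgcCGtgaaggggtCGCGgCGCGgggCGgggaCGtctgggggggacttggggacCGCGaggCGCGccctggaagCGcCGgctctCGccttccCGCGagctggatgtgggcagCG

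Hhip had 28 CpG in these 250 bases and Ptch1 41. Over the whole windows, Hhip was 73.7% GC with 30 CpG and Ptch1 76.3% GC with 47, against medians of 52.7% and 7 over all 32851 windows. The other windows ranged from 12 CpG (Dhh) to 39 (Gli3). The 9-base Gli motif GACCACCCA, searched on both strands (its reverse is TGGGTGGTC, with no overlapping motif), was in none of the 7 member windows and in 83 of all windows (0.253%). No match says only that these letters are not in these windows.

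Of the ligands, Shh and Ihh were at or near 0 in every group, and Dhh was low. Shh (chromosome 5, 28456815 to 28467256, minus strand) was listed at 0 in 18 of the 21 libraries. Its values above 0 were 0.146 FPKM in a mesenchymal control, 0.106 in an H19DMD mutant mesenchymal library and 0.15 in an Igf2-model control. Ihh (chromosome 1, 74945315 to 74951672, minus strand) was listed at 0 in 16 libraries and reached at most 0.272 FPKM, in replicate 3 of the Igf2-model controls. Both ligands were thus at or near 0 in each fraction, with no order between them, and no fold is given.

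Dhh (chromosome 15, 98891152 to 98898540, minus strand), best known from Schwann cells, Sertoli cells and endothelium, was the ligand with most signal. In the mesenchymal controls it was 0.613, 0 and 0 FPKM, and in the mesenchymal mutants 0.518, 1.69, 0 and 0. In the non-mesenchymal cells of the H19DMD model it was 0.618, 2.61 and 0.164 FPKM in controls and 1.88, 2.42, 0.213 and 0.365 in mutants. Dhh was thus above 0 in all 14 non-mesenchymal libraries of both models but in 3 of 7 mesenchymal libraries. The fractions overlapped: the difference of mean log2(FPKM + 1), mesenchymal minus non-mesenchymal, was -0.69 in controls (exact permutation p = 0.2) and -0.50 in mutants (exact permutation p = 0.286). With 1 library left out it ran from -1.04 to -0.23 in controls and from -0.81 to -0.24 in mutants. The summed FPKM of 9 Schwann and neural markers was higher outside the mesenchyme in the H19DMD model. It was 4.02 to 10.6 in mesenchymal and 25.5 to 61.4 in non-mesenchymal libraries. Sox10, Foxd3 and Cdh19 were listed at 0 in every mesenchymal library. By library these sums were 43.15, 25.54 and 45.59 in the non-mesenchymal controls, lowest where Dhh was highest. In the non-mesenchymal mutants they were 35.3, 61.4, 32.1 and 25.8, highest where Dhh was highest. The summed FPKM of 7 endothelial markers was 73.9 to 118.5 in mesenchymal and 16.5 to 39.6 in non-mesenchymal libraries of that model. In the Igf2 model, Dhh was 0.363, 3.32, 1.83 and 2.38 FPKM in controls and 0.181, 0.387 and 1.94 in mutants. There the endothelial sums were 13.5, 106.6, 51.6 and 61.0 in controls and 60.4, 29.9 and 103.3 in mutants. The Schwann and neural sums were 80.0, 25.6, 112.6 and 57.0 in controls and 55.9, 44.3 and 67.4 in mutants. The part of these cells in Dhh was not tested.

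**Figure D1:**
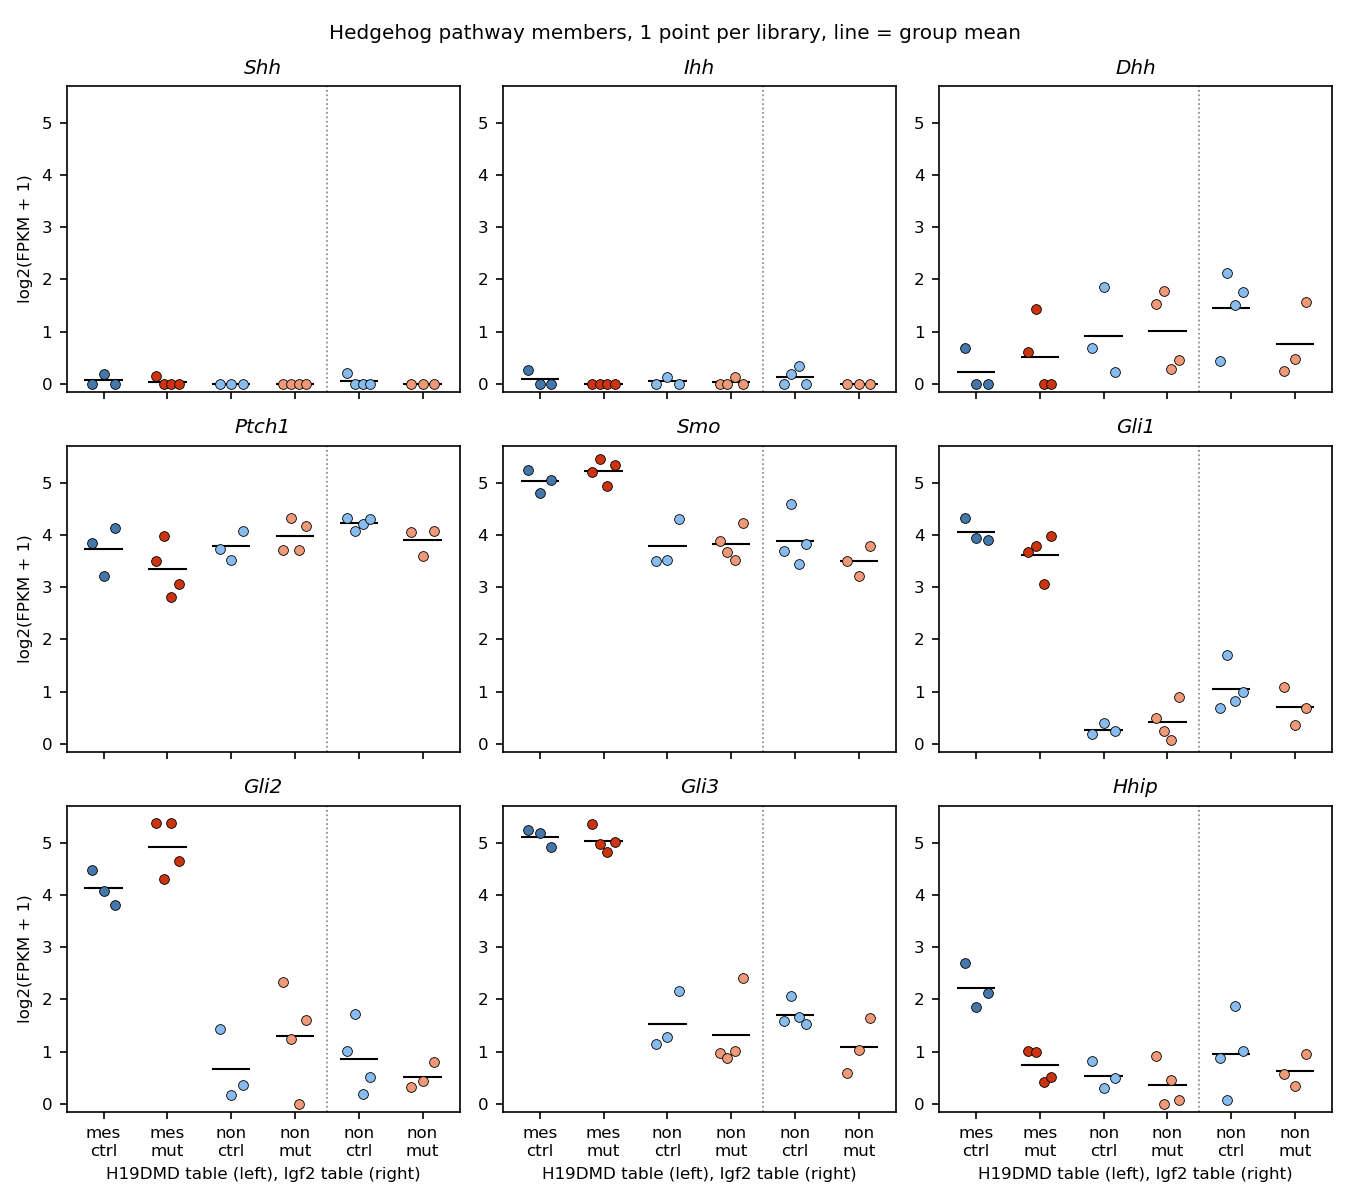
Level of each of the 9 genes as log2(FPKM + 1) on the y axis, 1 point per library and a line at the group mean, for mesenchymal (mes) and non-mesenchymal (non) controls (ctrl) and mutants (mut). The H19DMD table is left and the Igf2 table right of the dotted line. Gli1, Gli2 and Gli3 are higher in every mesenchymal library than in any other, Ptch1 lies between 6.00 and 19.1 FPKM in all 6 groups, and Shh and Ihh lie at or near 0.

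Ptch1 (chromosome 13, 63508328 to 63573598, minus strand), which is both the ligand receptor and a pathway target, overlapped between the fractions. It was 13.3, 8.25 and 16.6 FPKM in the mesenchymal controls and 12.3, 10.5 and 15.9 in the non-mesenchymal controls. The libraries interleave, and the difference was -0.05 ± 0.30 (SE) on the log2 scale (95% interval -0.783 to 0.683, limma adjusted p = 0.930). The interval allows differences of either sign, so equality is not shown. In H19DMD mutants Ptch1 was 10.3, 14.7, 6.00 and 7.38 FPKM in mesenchymal and 12.1, 18.97, 12.1 and 17.1 in non-mesenchymal cells. There 3 of the 4 mesenchymal libraries lay below all non-mesenchymal ones, and the difference was -0.64 ± 0.29 (limma adjusted p = 0.136). Without replicate 2 of the mesenchymal mutants it was -0.86 (limma adjusted p = 0.0482).

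Smo (chromosome 6, 29735503 to 29761365, plus strand), the 7-pass membrane protein that Ptch1 holds inactive, was higher in mesenchymal cells. It was 37.0, 26.9 and 31.9955 FPKM in the mesenchymal controls and 10.4, 10.5 and 18.7 in the non-mesenchymal controls, with no overlap. The means differed 2.42-fold, by 1.25 ± 0.28 on the log2 scale (limma adjusted p = 0.0236). This call was lost when any of 4 libraries was left out (limma adjusted p = 0.0677 to 0.0795 without mesenchymal control 1 or 3 or non-mesenchymal control 1 or 2). It was also lost when the replicate numbers were fitted as a block (limma adjusted p = 0.0551). In mutants Smo was 29.5 to 42.9 FPKM against 10.5 to 17.6, a 2.75-fold difference (1.40 ± 0.20, limma adjusted p = 0.00103).

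The 3 Gli genes separated the fractions far more than the receptors did. Gli1 (chromosome 10, 127329882 to 127341974, minus strand), an activator that is itself a standard target of the pathway, was 19.1, 14.4 and 14.03 FPKM in the mesenchymal controls and 0.134, 0.310 and 0.189 in the non-mesenchymal controls. That is a 75.0-fold difference of means and 3.79 ± 0.22 on the log2 scale (limma adjusted p = 0.000210). The 4 mesenchymal mutants had 11.7, 12.7, 7.38 and 14.8 FPKM and the non-mesenchymal mutants 0.0592 to 0.851, a 31.1-fold difference (3.20 ± 0.28, limma adjusted p = 6.8e-05). Without non-mesenchymal mutant 4 the fold was 53.9. Gli1 was therefore near the foot of the range outside the mesenchyme in every library of this table, although Ptch1 was not. The ratio of Gli1 to Ptch1 FPKM was 0.846 to 2.01 over the mesenchymal libraries and 0.00489 to 0.0498 over the non-mesenchymal ones.

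Gli2 (chromosome 1, 118834132 to 119053619, minus strand), the main activator downstream of Smo, was 21.3, 15.8 and 13.04 FPKM in the mesenchymal controls. In the non-mesenchymal controls it was 1.71, 0.127 and 0.286, which is 23.6-fold lower (3.46 ± 0.40 for mesenchymal minus non-mesenchymal, limma adjusted p = 0.0021), or 81.0-fold lower without non-mesenchymal control 1. Gli3 (chromosome 13, 15463235 to 15730026, plus strand), which acts chiefly as a repressor, was 36.8, 35.1 and 29.1 against 1.21, 1.43 and 3.46 FPKM, a 16.6-fold difference (3.58 ± 0.31, limma adjusted p = 0.000767), or 25.5-fold without non-mesenchymal control 3. In mutants Gli2 was 18.7 to 40.6 against 0 to 4.03 FPKM (3.63 ± 0.50, limma adjusted p = 0.000884) and Gli3 was 27.1 to 39.7 against 0.834 to 4.32 (3.72 ± 0.35, limma adjusted p = 0.000114). All 3 Gli genes were higher in each mesenchymal library than in any non-mesenchymal library of the H19DMD model.

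Hhip (chromosome 8, 79965851 to 80058006, minus strand) was also higher in control mesenchyme. It was 5.44, 2.60 and 3.35 FPKM there and 0.773, 0.231 and 0.402 in the non-mesenchymal controls, an 8.10-fold difference of means (1.68 ± 0.33, limma adjusted p = 0.0154). The mutant fractions overlapped: Hhip was 1.02, 0.996, 0.337 and 0.435 FPKM in mesenchymal and 0.897, 0, 0.374 and 0.0534 in non-mesenchymal cells. Its mean in mutants was below the 1 FPKM asked for the test, and the difference was 0.37 (exact permutation p = 0.171).

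In all, 6 of the 9 members could be tested between the control fractions and 5 were called, all higher in mesenchyme, where 22.6% of the 16732 genes tested were called and 12.4% were higher in mesenchyme. With the loss of Smo, 4 were called under the replicate block and when any of the 4 libraries named beside Smo was left out. Between the mutant fractions, 5 members were tested and 4 called, all higher in mesenchyme, against 28.6% called and 13.5% higher of 16767 genes. Gli1, Gli2 and Hhip in controls, and Gli1 in mutants, passed the filter only through their mesenchymal libraries, so the counts themselves are a description. The log2 differences of low genes depend on the pseudocount. With pseudocounts of 5 and 0.1, Gli1 was at 1.99 and 5.704 in controls and 1.61 and 4.89 in mutants, Gli2 at 1.92 and 4.93 in controls and 2.36 and 4.78 in mutants, Gli3 at 2.47 and 4.42 in mutants, and Hhip at 0.67 and 2.83 in controls, all still called. The groups did not overlap for 5 of the 9 members in controls (39.9% of all genes tested, 22.4% higher in mesenchyme) and for 4 in mutants (31%, 14.4% higher). The exact permutation p of these 5 members was 0.1, the lowest value possible for 3 against 3, and that of the 4 was 0.0286, the lowest for 4 against 4. The median difference of all genes between the control fractions, 0.08, moved to -0.03 with median-ratio scaling, under which Ptch1 was at -0.17 and the same number of members were called. In sorted bulk cells, fewer cells of a type and less RNA per cell cannot be told apart.

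**Figure D2:**
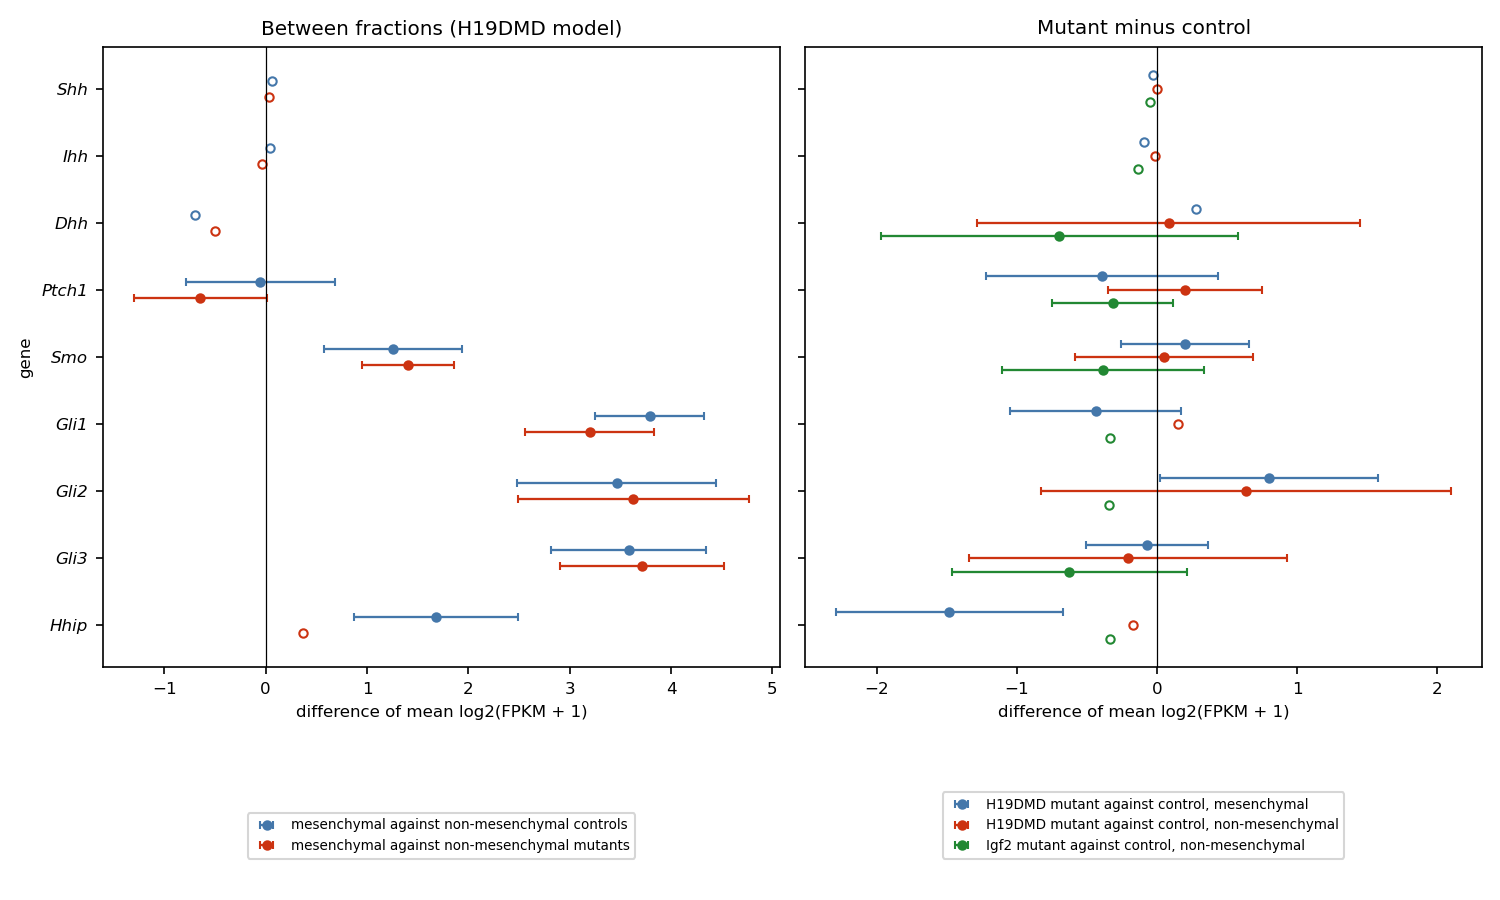
Difference of mean log2(FPKM + 1) on the x axis for each of the 9 genes on the y axis, with 95% limma intervals. Left, mesenchymal minus non-mesenchymal cells of the H19DMD model, and right, mutant minus control in 3 comparisons. Open points are genes under the filter, which have no interval. In controls Smo, Gli1, Gli2, Gli3 and Hhip lie to the right of 0, and in mutant mesenchyme Hhip lies at -1.48.

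The order of the members differed between fractions. In mesenchymal controls Gli3 (33.7 ± 4.05 FPKM, SD, n = 3) and Smo (31.98 ± 5.08) stood above Gli2 (16.7 ± 4.22), Gli1 (15.9 ± 2.83) and Ptch1 (12.7 ± 4.20), with Hhip (3.80 ± 1.47) below. The libraries of Gli3 and Smo overlapped, as did those of Gli2, Gli1 and Ptch1, while Smo did not overlap Gli2, nor Ptch1 overlap Hhip. Of all protein-coding genes, 8.85% had a higher mean than Gli3 there and 44.8% a higher mean than Hhip. In the non-mesenchymal controls Smo (13.2 ± 4.79) and Ptch1 (12.9 ± 2.77) led and overlapped, and Gli3 (2.03 ± 1.24) followed without overlap. The same pair, Ptch1 and Smo, led in the other 3 non-mesenchymal groups, and in each of them neither overlapped the next gene. In the Igf2 model, Ptch1 was 17.8 ± 1.48 FPKM (SD, n = 4) and Smo 14.4 ± 5.83 in controls, while Gli3, Dhh, Gli1, Hhip and Gli2 had means between 0.974 and 2.31.

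Across the 14 libraries of the H19DMD table, the named genes whose log2(FPKM + 1) was most like that of Gli1 were Loxl1 (Pearson's r = 0.993), Aebp1 (0.992), Col5a2 (0.992), Pcdh7 (0.991) and Ahnak (0.991). Loxl1 crosslinks elastic fibres and Col5a2 encodes a fibrillar collagen. These r values are descriptive: the libraries fall into a mesenchymal and a non-mesenchymal set, and 743 of 9156 genes compared had an r of at least 0.9.

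The rest of the pathway was read from 4 lists, of which 53 of 54 names were matched. List counts are read against the shares over all genes, 22.6% called and 12.4% higher in mesenchyme in controls, and 28.6% and 13.5% in mutants. Of 10 genes that release, carry or bind ligand, 9 were tested between the control fractions and 6 were called, all higher in mesenchyme. The list's median log2 difference was 1.68, against 0.08 over all genes tested. Gas1, a co-receptor that helps ligand reach Ptch1, was 93.4 to 110 FPKM in mesenchymal and 2.97 to 4.61 in non-mesenchymal controls (4.46 ± 0.20, limma adjusted p = 0.000102). Gpc3, a glypican that can compete with Ptch1 for ligand, was 160 to 190 against 12.8 to 15.4 (3.56 ± 0.16, limma adjusted p = 0.000102). Boc, another co-receptor, was 13.7 to 15.8 against 0.412 to 0.954 (3.31 ± 0.22, limma adjusted p = 0.000337). Shh and Ihh were near 0 in both fractions, while these ligand-binding genes stood apart. In mutants, 8 of 9 were called, again all higher in mesenchyme, with a median of 1.63 against -0.03.

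For the general machinery between Smo and the Gli proteins, the counts were near or below those over all genes. Of 18 signal transduction genes, all were tested in controls and 2 were called higher in mesenchyme, with a median of 0.29. The 2 called genes were Evc (1.39 ± 0.25, limma adjusted p = 0.0114), a ciliary partner of Smo, and Kif7 (1.26 ± 0.28, limma adjusted p = 0.0237), a kinesin of the cilium tip. In this list 7 had an unadjusted limma p under 0.05, as did 5722 of the 16732 genes tested, and the groups did not overlap for 6 higher and 2 lower genes (39.9% of all genes in either direction). Of 13 cilium genes, 1 was called higher: Ift172 (0.90 ± 0.23, limma adjusted p = 0.0370), a subunit of the intraflagellar transport machinery. The cilium median was -0.07. In mutants, Evc2 was called higher (1.45 ± 0.40, limma adjusted p = 0.0267), Stk36 lower (-0.96 ± 0.29, limma adjusted p = 0.0411) and no cilium gene was called. Of the 13, 4 had an unadjusted limma p under 0.05, as did 6549 of the 16767 genes tested.

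Of 12 genes known as targets in gut mesenchyme, 9 were tested in controls, 4 were called higher in mesenchyme and 1 lower, with a median of 2.28. Osr1, a mesenchymal zinc-finger factor, was 37.6 to 74.9 FPKM against 0.175 to 0.874 (5.21 ± 0.32, limma adjusted p = 0.000254). Sfrp1, a secreted Wnt inhibitor, was 65.1 to 74.5 against 3.58 to 8.03 (3.56 ± 0.28, limma adjusted p = 0.000556), and Bmp4, a secreted growth factor, was 14.2 to 21.4 against 0.157 to 1.11 (3.45 ± 0.31, limma adjusted p = 0.000841). Ccnd1, a cell cycle cyclin used by many cell types, was lower in mesenchyme, at 17.4 to 28.4 against 94.9 to 128 FPKM (-2.24 ± 0.25, limma adjusted p = 0.00177). In mutants 7 were called higher and 2 lower, the latter being Ccnd1 and Mycn. Of the genes not tested between fractions, Foxl1 was listed at 0 in all 14 libraries, and Foxf2, Nkx3-2 and the ligand carrier Scube2 stayed between 0 and 2.40 FPKM. Among called list genes, Boc, Kif7, Foxf1, Bmp4 and Osr1 in controls, and Boc, Lrp2, Foxf1, Osr1 and Hand1 in mutants, averaged under 1 FPKM outside the mesenchyme. They passed the filter only through the mesenchymal libraries, and Mycn only through the non-mesenchymal ones, so the list counts are a description. Mesenchymal, smooth muscle and mesothelial markers differed in the same direction, with 10 of 10, 6 of 6 and 5 of 6 called higher in control mesenchyme. Of 7 endothelial markers, 2 were called higher and all 7 differences were above 0. The part of these markers in the list counts was not tested.

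**Figure D3:**
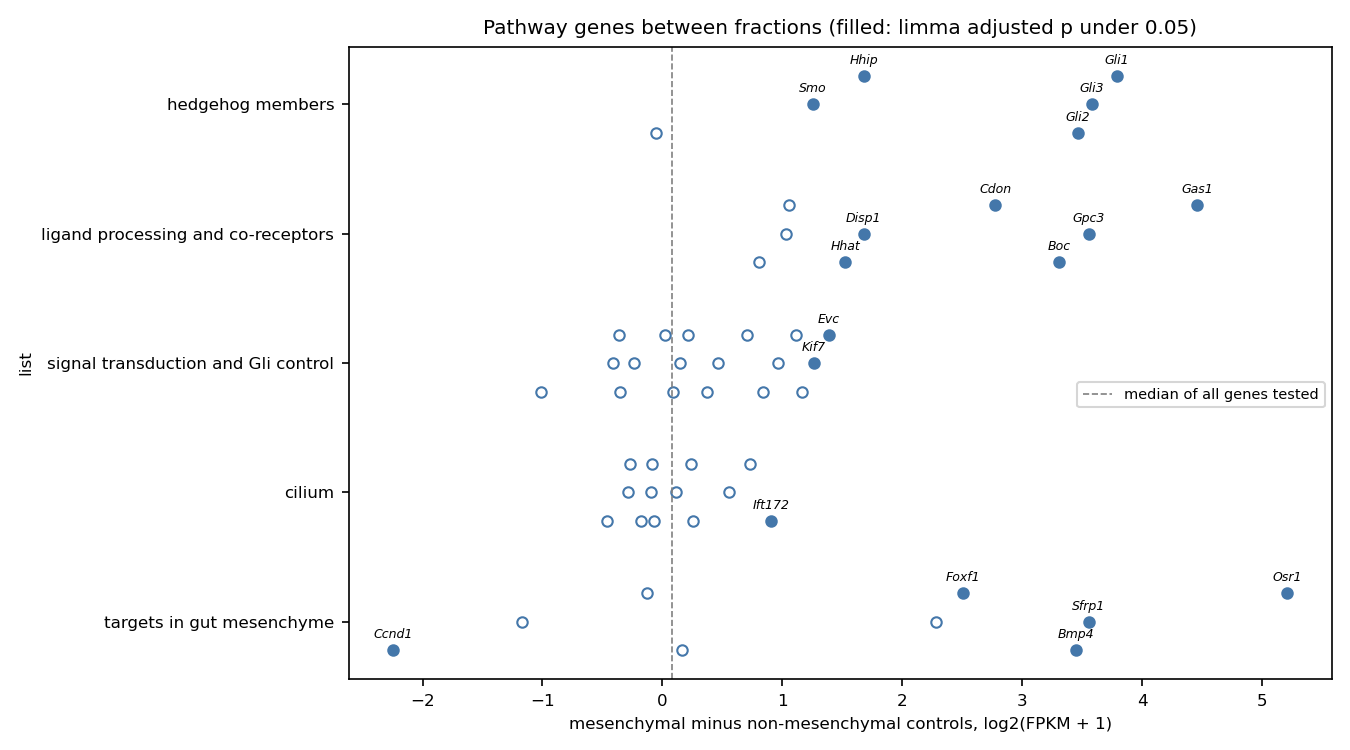
Log2 difference between mesenchymal and non-mesenchymal controls on the x axis for the 9-gene set and 4 pathway lists on the y axis, 1 point per gene tested. Filled, named points have a limma adjusted p under 0.05 and the dashed line is the median of all genes tested, 0.08. Called genes lie mostly among ligand-binding genes, Gli genes and targets, with Ccnd1 at -2.24.

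In mesenchymal cells of the H19DMD model, in which Igf2 was 1.83-fold higher in mutants, none of the 6 members tested was called in mutants against controls (0.0694% of 15856 genes were). Hhip and Gli2 had an unadjusted limma p under 0.05, as did 755 of the genes tested. Hhip had the widest gap: 1.02, 0.996, 0.337 and 0.435 FPKM in the 4 mutants against 5.44, 2.60 and 3.35 in the 3 controls. Every mutant lay below every control, and the mean was 5.45-fold lower. The log2 difference was -1.48 ± 0.34 (95% interval -2.29 to -0.670), with an unadjusted limma p of 0.00345 and an adjusted p of 0.927. Of 15856 genes, 44 (0.277%) had a p as low, and the groups failed to overlap for 5.39% of genes (3.77% lower in mutants). Hhip averaged 0.696 FPKM in mutants and passed the filter only through the controls, which limits the p and its rank. The exact permutation p for Hhip alone was 0.0286, the smallest that 4 against 3 libraries allow. Leaving out any library left the difference between -1.67 and -1.25, and its adjusted p stayed above 0.05.

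Markers of other cells were also compared: the mesothelial and ductal sums did not overlap between the groups, and the smooth muscle sums did. The summed FPKM of 6 mesothelial markers was 161.5 to 355.9 in the mesenchymal controls and 105.1 to 158.2 in the mutants, without overlap. Of these markers, 3 of 6 had an unadjusted limma p under 0.05 and none was called (median log2 difference -1.19). The 6 smooth muscle markers summed to 447 to 952 FPKM in controls and 86.0 to 913 in mutants, and all 6 differences were below 0 (median -0.91, none called or with an unadjusted limma p under 0.05). Every mesothelial and smooth muscle marker averaged at least 1 FPKM in both groups. The 7 ductal markers summed to 38.6 to 86.1 FPKM in controls and 23.9 to 38.4 in mutants, also without overlap. Of these, 5 were tested, 2 differences were above 0 and none had an unadjusted limma p under 0.05 (median -0.35). Krt19 is in both the mesothelial and the ductal list. The part of these markers in the Hhip difference was not tested. The 10 mesenchymal markers summed to 6342 to 7438 FPKM in controls and 5764 to 7158 in mutants (median -0.05).

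The other members of mutant mesenchyme stayed closer to the controls. Gli2 was 40.6, 18.7, 40.2 and 23.98 FPKM in mutants against 21.3, 15.8 and 13.04 in controls, with 3 of 4 mutants above every control (0.80 ± 0.33, limma adjusted p = 0.927, exact permutation p = 0.114). Gli1 had 3 of 4 mutants below every control (-0.44 ± 0.26, exact permutation p = 0.171). Gli3 (-0.07 ± 0.18), Ptch1 (-0.39 ± 0.35) and Smo (0.20 ± 0.19) overlapped, with intervals that held 0. With 1 library left out, Ptch1 ran from -0.65 to -0.19 and Smo from 0.08 to 0.31. Gli1 then ran from -0.56 to -0.25 and Gli2 from 0.65 to 1.01. The ratio of Gli2 to Gli3 was 0.448 to 0.579 in controls and 0.615 to 1.48 in mutants, and that of Hhip to Gli1 was 0.180 to 0.285 against 0.0294 to 0.0872. These ratios did not overlap but were formed after the values had been seen. The mesenchymal controls enter this comparison and the one between control fractions, so the values of Hhip in the 2 comparisons are not independent.

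**Figure D4:**
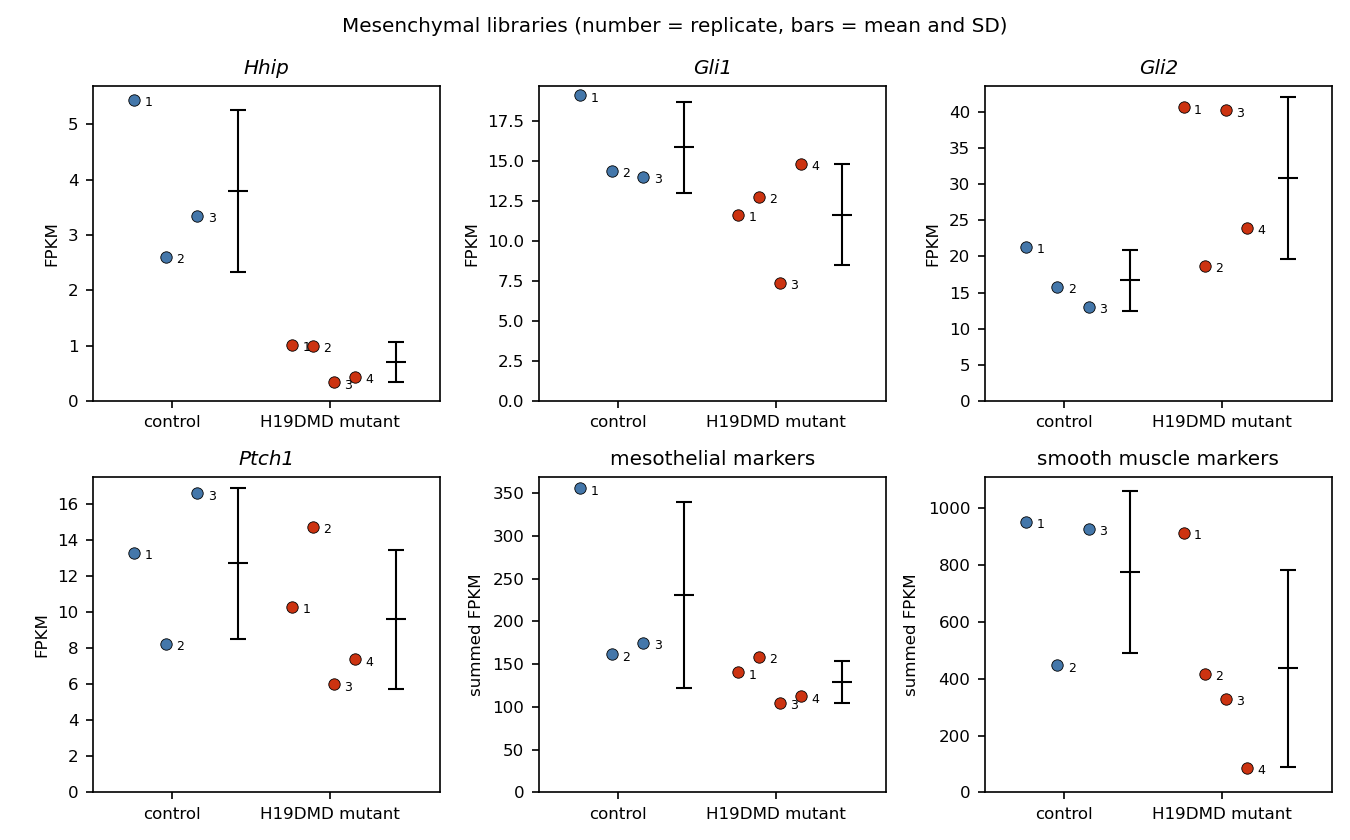
FPKM of Hhip, Gli1, Gli2 and Ptch1, and summed FPKM of 6 mesothelial and 6 smooth muscle markers, on linear y axes starting at 0, in 3 control and 4 H19DMD mutant mesenchymal libraries. Points are libraries with their replicate number, and bars are mean and SD. Hhip and the mesothelial sum do not overlap between the groups, and the other panels do.

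No gene of the 4 pathway lists was called in mutant mesenchyme. Of 10 ligand-binding genes the groups overlapped for all, with Gas1 at -0.11 ± 0.18 and Gpc3 at -0.06 ± 0.14. Among signal transduction genes, Kif7 was 1.33 to 1.66 FPKM in mutants against 1.93 to 3.01 in controls (-0.38 ± 0.26), and Stk36, a kinase linked to motile cilia, 0.667 to 2.72 against 3.53 to 4.11 (-0.79 ± 0.33). Among targets, the survival factor Bcl2 was 14.4 to 17.1 against 8.27 to 12.2 (0.52 ± 0.19, limma adjusted p = 0.927). These 3 genes are those tested from the lists whose groups did not overlap, against 5.39% of all genes. The signal transduction gene Grk2, whose groups overlapped, was 5.67 to 27.3 FPKM in mutants against 2.29 to 7.125 in controls (1.38 ± 0.54, limma adjusted p = 0.927). The list medians, from -0.11 to -0.02, lay near that of all genes, -0.07.

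In the non-mesenchymal cells of the H19DMD model 5 members were tested and none was called (0.0677% of 16239 genes were, and 868 had an unadjusted limma p under 0.05, no member among them). Ptch1 differed by 0.20 ± 0.23, Smo by 0.05 ± 0.27, Gli2 by 0.64 ± 0.62, Gli3 by -0.21 ± 0.48 and Dhh by 0.08 ± 0.58, and no member's groups failed to overlap (5.68% of all genes). With 1 library left out, Ptch1 ran from 0.07 to 0.35 and Gli2 from 0.39 to 1.07. No gene of the 4 pathway lists was called, and of those tested only Gsk3b, a kinase that marks Gli proteins for processing, did not overlap, at 63.1 to 73.6 FPKM in mutants against 61.8 to 62.6 in controls.

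In the Igf2 model 4 members were tested and none was called (0.0631% of 17441 genes were, and 921 had an unadjusted limma p under 0.05, no member among them). Ptch1 was 15.6, 11.1 and 15.8 FPKM in the mutants and 19.1, 15.8, 17.4 and 18.7 in the controls. All 3 mutants lay below all 4 controls, the highest mutant (15.8002) just under the lowest control (15.8173), and 3.37% of genes were lower without overlap (6.02% in either direction). The difference was -0.32 ± 0.18 (95% interval -0.747 to 0.115, limma adjusted p = 0.919, exact permutation p = 0.0571). Gli3 was 0.499, 1.04 and 2.11 FPKM against 1.99, 3.19, 2.16 and 1.88 (-0.63 ± 0.36, exact permutation p = 0.0857). Smo (-0.39 ± 0.31) and Dhh (-0.70 ± 0.54) overlapped. With 1 library left out, Ptch1 ran from -0.40 to -0.16 and Gli3 from -0.90 to -0.38. Smo then ran from -0.53 to -0.15 and Dhh from -1.10 to -0.44. The differences of all 9 members were below 0, from -0.05 (Shh) to -0.70 (Dhh), and members are not replicates. The 10 acinar markers summed to 85980 to 97690 FPKM in these mutants and 28980 to 42150 in the controls, and their part in the levels of the Hedgehog genes was not tested. No gene of the 4 lists was called in this comparison. Of 13 cilium genes, 3 were lower in mutants without overlap (median of the list -0.33, of all genes -0.03). Tulp3, which carries receptors into the cilium, was 5.43 to 9.99 FPKM against 10.7 to 18.6 (-0.69 ± 0.27). Dync2h1, the motor of retrograde transport, differed by -0.45 ± 0.19, and Ofd1, a protein of the cilium base, by -0.29 ± 0.20. Of the target list, Ccnd1 was 69.7 to 113 FPKM in mutants against 147 to 193 in controls (-0.80 ± 0.20, limma adjusted p = 0.919). The models were sequenced and normalised apart, so their levels are set side by side without a test.

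Whether the response to the H19DMD deletion differed between fractions was tested directly. None of the 6 members tested was called (0.0117% of 17105 genes were, and 1087 had an unadjusted limma p under 0.05). Hhip had an interaction of -1.31 ± 0.47 (95% interval -2.34 to -0.278, limma adjusted p = 0.755). Its response was -1.48 in mesenchymal and -0.17 in non-mesenchymal cells, where its values were all under 1 FPKM, and it passed the filter only through the mesenchymal controls. Gli1 (-0.59 ± 0.36) and Ptch1 (-0.59 ± 0.43) had intervals that held 0. The median interaction of all genes was -0.11 and moved to -0.01 with median-ratio scaling, under which Hhip was at -1.22.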

How the data were processed

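Of 31 labelled samples, 21 had values. The authors deposited 1 table of FPKM values for each model, per the file headers, and the 8 mesenchymal columns of the Igf2 model hold no values. The submitters' processing notes name TopHat2 2.0.8, Cufflinks 2.2.1 and GRCm38; the use of strand is not given in the sources used here. FPKM tables hold no counts, so depth is unknown and no counting intervals are given. A value of exactly 0 may mean that no estimate was made, and is written as listed at 0. The loci listed for Shh, Gli1 and Gli3 are 466.7, 5.8 and 22.9 kb wider than the annotated genes. How reads of neighbouring transcripts were divided is not given. Gene positions are from GENCODE M21 (36425 of 38283 IDs found).

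Samples were grouped by their labels. Log2(FPKM + 1) was fitted with limma 3.58.1 (lmFit, eBayes with a variance trend; R 4.3.3), only the groups compared in each fit, where a gene averaged 1 FPKM or more over those libraries, two-sided, with Benjamini-Hochberg adjustment over all genes tested and a threshold of 0.05. A called gene passed it. Differences are on this scale with their SE, which understates low genes; folds are ratios of mean FPKM. Exact permutation tests (scipy 1.17.1, two-sided, over libraries) were run for single members. The 9 members were named throughout, up to 3 called genes per direction and pathway list by the size of the control fraction difference. The other pathway genes given with values (Evc2, Mycn, Stk36, Bcl2, Gsk3b, Tulp3, Dync2h1 and Ofd1, the untested genes, and list genes in the mutant comparisons) were chosen after their values were seen. 1 further gene, planned for the ligand-binding list, was left out of its counts and is not reported here. The members and lists were chosen with earlier results of these data known. On simulated data over genes with transcripts of at least 200 nt, 16% of genes changed by 1 and 88% changed by 3 on the log2 scale were recovered in the mesenchymal mutant comparison (14346 genes), with 10 false calls; the real data gave 1 call over these genes and 11 over all 15856 tested. For the control fractions (15277 genes) it was 4% and 86%, with 2 false calls. The simulations held 200 changed genes, more than the mutant comparison called. Recovery was not split by expression level, so these shares cannot be read as the power for low genes such as Hhip. Alternatives were other pseudocounts, filters, scaling, variance models, all groups in 1 fit, a replicate block over the numbers that the groups share, which drops replicate 4 where it has no partner, and leaving out each library.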

Additional observations from a re-analysis of the deposited data

Results flagged for a closer look

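Of 25 groups of 4 libraries with any spread, 4 had a library whose gap to the next, divided by the group's range, exceeded 0.829, Dixon's 95% critical value for 4 samples. In 3 of these 4 groups the library was the only one above 0, which gives a ratio of 1.0 at any value. The count of 4 therefore cannot be set against the 1 in 20 groups that chance is taken to flag. Shh was at 0.15 FPKM in replicate 1 of the Igf2-model non-mesenchymal controls and 0.106 in replicate 1 of the H19DMD mutant mesenchymal libraries. Ihh was at 0.0958 FPKM in replicate 3 of the H19DMD mutant non-mesenchymal libraries. The remaining flag was Gli3 at 4.32 FPKM in replicate 4 of the H19DMD mutant non-mesenchymal libraries, against 0.834 to 1.03 in the other 3 (gap over range 0.906). That library also had the highest Gli1 of its group, at 0.851 FPKM. Its mesenchymal marker sum was 255 FPKM, against 184, 296 and 164 in replicates 1, 2 and 3. The part of mesenchymal cells in its Gli3 value was not tested.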

How the results depend on the processing

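Comparisons with the mesenchymal cells of the Igf2 model were planned and not run, since no values were at hand. The number of members called was 4 to 5 between the control fractions under every alternative and leave-out, 4 to 5 between the mutant fractions, and 0 in the 3 mutant comparisons and the interaction. The replicate block left 4 members called between the control fractions, where Smo lost its call (limma adjusted p = 0.0551), and changed no other call of a member. In the mutant comparisons and the interaction, fits with this block also leave out the unpaired replicate 4, so their values reflect both changes. Correlations of the deviations of same-numbered libraries ran from -0.144 to 0.136 over all comparisons. They were -0.00949 to 0.136 between the control fractions and 0.0278 to 0.119 between the mutant fractions. The same number was the best match for 1 of 3 and 2 of 4. With so few libraries these values cannot show whether the fractions were paired. The numbers were not taken as pairs. Directions that reversed belonged to differences that were not called. Gli3 in mutant mesenchyme was 0.0065 with median-ratio scaling. Smo in mutant non-mesenchymal cells of the H19DMD model was -0.012 with that scaling and -0.084 with the replicate block, the same as without mutant replicate 4 and no block. The Gli2 interaction was -0.15 with a pseudocount of 0.1. Leaving out 1 library gave -0.255 to 0.209 for Ptch1 between control fractions, -0.17 to 0.0027 for Gli3 in mutant mesenchyme, and -0.27 to 0.33 for Dhh, -0.087 to 0.31 for Smo and -0.57 to 0.11 for Gli3 in mutant non-mesenchymal cells of the H19DMD model. For interactions it gave -0.11 to 0.29 for Smo, -0.27 to 0.51 for Gli2 and -0.18 to 0.50 for Gli3. The cause was not tested. Hhip in mutant mesenchyme ranged from -2.35 with a pseudocount of 0.1 to -0.62 with a pseudocount of 5.

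Counts over all genes moved more. With transcripts of at least 200 nt, 1, 0, 0 and 0 genes were called in mutant mesenchyme, the non-mesenchymal cells of the H19DMD and Igf2 models and the interaction, against 11, 11, 11 and 2. With all groups of the table in 1 fit, 5 and 1 were called in the H19DMD mutant comparisons. Leaving out 1 library gave 13 to 27, 14 to 34, 14 to 37 and 2 to 9. A filter of 5 FPKM gave 2448 and 3148 calls between the control and the mutant fractions, against 3785 and 4802. The block without the unpaired libraries gave 17 calls in the Igf2 model, where leaving out control 4 alone gave 23, and 4 for the interaction, where leaving out mesenchymal mutant 4 alone gave 4 and non-mesenchymal mutant 4 alone 2, and a pseudocount of 0.1 or no filter gave 6 for the interaction. The median difference of all genes between control fractions was 0.08 and -0.03 with median-ratio scaling.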
